A study of Mus musculus with 4 samples.

Results

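The maternally methylated control regions of mouse chromosomes 6 and 7 are 7 stretches of DNA, each known by an imprinted gene of its locus: Peg10, Mest and Nap1l5 on chromosome 6, and Peg3, Snrpn, Inpp5f and Kcnq1ot1 on chromosome 7. They were set by fixed mm9 coordinates and not by a cut on measured levels, although earlier results of these data were known. Within them the cytosines with 5 or more calls in every library were used. These were 190 of the 459 cytosines listed inside the regions, out of 2468166 such cytosines in the genome. The 7 regions were tested together with all 1 kb tiles of the genome that held at least 3 such cytosines, 155249 features in all.

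The libraries are reduced representation bisulfite libraries of mouse embryonic stem (ES) cells, 2 of WT and 2 of Naa10-KO cells. In this method MspI-cut DNA is treated with bisulfite, which lets a methylated cytosine be told from an unmethylated one, so only cytosines close to MspI sites are read. Naa10 is the catalytic subunit of NatA, the enzyme complex that acetylates the N-termini of many proteins, and the series asks about its role in DNA methylation and imprinting. Cells of both genotypes were grown in N2B27 medium with the Mek inhibitor PD325901, the Gsk3 inhibitor Chir99021 and LIF on irradiated feeder cells, with the last 5 passages before harvest free of feeders. Strain, age, sex, the type of Naa10 allele and the number of clones are not given in the labels. The labels do not name separate cultures behind libraries of the same genotype, so the p-values rest on a spread that may be technical. The libraries are called WT1 and WT2 (WT replicates) and KO1 and KO2 (Naa10-KO replicates) here. They held between 68586396 and 79540412 calls. The share of methylated calls was 30.5% in WT1 and in WT2, 10.9% in KO1 and 7.30% in KO2, so the KO libraries were lower across the genome and differed from each other.

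Genomic imprinting means that a gene is expressed from the copy inherited from a given parent. At a maternally methylated control region the egg's copy carries DNA methylation laid down during oocyte growth, the sperm's copy does not, and the difference is kept through the wave of demethylation after fertilisation. In somatic cells such a region therefore reads near 50%, the mean of a methylated and an unmethylated copy. The zinc finger protein ZFP57, which binds the methylated hexamer TGCCGC, and its partner TRIM28 are known to protect methylation at many of these regions.

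Promoter sequences were available from RefSeq for 6 of the 7 genes, in 11 entries of build GRCm38.p6. Each runs from 250 bases before to 50 bases after a transcript start. Those of Snrpn and Kcnq1ot1, whose regions kept the largest share of their WT level in KO cells, and of Nap1l5, whose region kept the smallest, are shown 5′ to 3′. All are on the minus strand, at chr7:60005150-60005449 (Snrpn), chr7:143296498-143296797 (Kcnq1ot1) and chr6:58907077-58907376 (Nap1l5), in coordinates that differ from the mm9 coordinates of the regions. In the Snrpn sequence capitals mark positions at which the deposited files list a cytosine on either strand. In the other 2 sequences, which could not be placed on the measured cytosines, capitals mark CpGs.
Snrpn: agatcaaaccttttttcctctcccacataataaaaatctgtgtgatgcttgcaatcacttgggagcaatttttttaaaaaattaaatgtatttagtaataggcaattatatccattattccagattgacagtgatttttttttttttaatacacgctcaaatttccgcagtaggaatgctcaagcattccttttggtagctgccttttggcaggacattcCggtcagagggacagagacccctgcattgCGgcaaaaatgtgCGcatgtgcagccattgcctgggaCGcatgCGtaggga
Kcnq1ot1: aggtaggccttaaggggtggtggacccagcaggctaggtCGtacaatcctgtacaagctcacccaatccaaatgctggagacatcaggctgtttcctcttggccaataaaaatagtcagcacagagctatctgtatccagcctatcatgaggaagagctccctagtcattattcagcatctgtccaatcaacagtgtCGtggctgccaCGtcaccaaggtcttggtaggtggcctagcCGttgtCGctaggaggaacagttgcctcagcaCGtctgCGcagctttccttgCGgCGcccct
Nap1l5: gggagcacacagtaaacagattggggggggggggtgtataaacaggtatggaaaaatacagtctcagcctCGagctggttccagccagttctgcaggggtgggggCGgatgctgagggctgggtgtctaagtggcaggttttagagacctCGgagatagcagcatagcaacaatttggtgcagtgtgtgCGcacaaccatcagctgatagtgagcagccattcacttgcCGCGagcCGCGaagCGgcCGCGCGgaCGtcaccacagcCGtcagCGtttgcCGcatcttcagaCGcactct

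The Snrpn sequence was placed by the spacing of its CpGs, which fitted 9 listed cytosines at 1 offset in the region and at most 3 at any other. That is fewer than the 15 cytosines first asked for, and the looser rule was chosen after the fits were seen. The hexamer TGCCGC was searched on both strands (its reverse complement is GCGGCA), and no other motif was searched. It occurs in 4 of the 11 entries of these genes and in 11.6% of all 32851 promoter entries. The 4 are the 2 overlapping Mest entries, Nap1l5, and the Snrpn entry shown. These windows hold only part of each control region. In the Snrpn window the reverse complement spans the CpG whose first cytosine is base 250, counted from the 5′ end. That cytosine read 27.3% in WT1, 20.7% in WT2, 14.7% in KO1 and 14.3% in KO2, from 21 to 34 calls per library. The other strand of this CpG read 0%, 25%, 28.6% and 20% in the same order, from only 4, 4, 7 and 10 calls.

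All 7 regions were lower in both KO libraries than in either WT library. The median over the regions was 33.0% in WT and 10.1% in KO cells, and the differences of group means ran from -11.9 percentage points at Inpp5f to -36 points at Mest. All 7 were called lower by edgeR's quasi-likelihood test (adjusted p below 0.05 and at least 10 points), as were 79.9% of all features, and none was called higher (0.00386% of all features were). With WT1, WT2 or KO2 left out, the calls fell by a larger part among the 7 than over all features. Without KO2 the differences at Peg10, Snrpn and Kcnq1ot1 were -9.81, -9.40 and -9.88 points, under the minimum of 10. With all 4 libraries and a minimum of 25 points, Mest and Peg3 were called, against 74.9% of all features. KO1 and KO2 were each below WT1 and WT2 at 90.8% of all features. The KO level was 28.2% of the WT level at the median region and also at the median tile, with both KO libraries averaged. The median share over the regions was 43.1% by KO1 alone and 12.6% by KO2 alone. The fall in points was smaller than at the median tile (-53.6), and the WT level the regions started from was lower than the tile's 80.4%. In a bulk library, fewer cells with a methylated copy and less methylation per cell cannot be told apart.

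**Figure D1:**
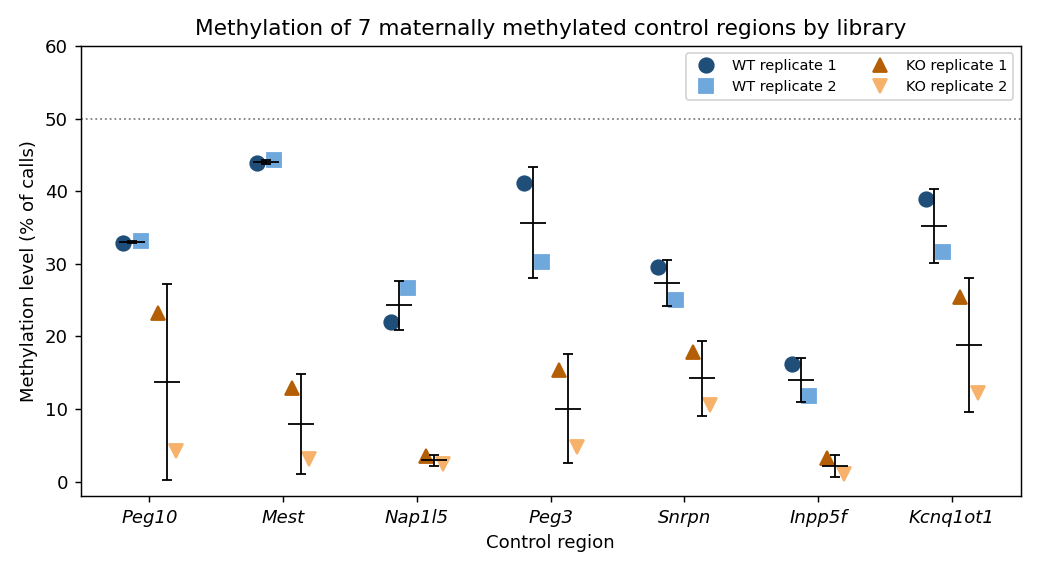
Methylation level (percent of calls, y axis) of the 7 control regions (x axis) in each of the 4 libraries. Markers are libraries, horizontal lines are group means, bars are 1 SD (n = 2) and the dotted line is 50%. All WT markers lie between 11.8% and 44.2%, and in every region both KO markers lie below both WT markers, with KO2 below KO1.

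With 2 libraries against 2, a two-sided exact permutation test cannot give a p below 0.33, which is the value for each region. Fitted on all 4 libraries, the edgeR test gave every feature the average spread of features of its depth and did not weigh the region's own spread. For that reason limma on logit levels, which does, is given beside it. A fit without 1 library leaves 1 sample in that genotype, which is assumed to vary like the other pair. Without WT1 or WT2 the spread comes from the KO pair alone and the common dispersion was 0.0846 or 0.0845, against 0.0499 with all libraries. Without KO1 or KO2 it comes from the WT pair and was 0.0061 in each, and these fits did weigh each feature's own spread. The logit is the natural logarithm of methylated over unmethylated calls. The median depth of a region's cytosines lay between 12 and 52 calls in a library. A region's share of all calls of its library, averaged per genotype, was 0.965 to 1.12 times as high in KO as in WT. PCR reads without molecular identifiers are not independent molecules, and neighbouring cytosines of a region are read on the same fragments, so intervals cover counting error only.

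The WT levels themselves lay under 50% at every region. Of the 190 cytosines, 57 had a mean WT level between 35% and 65%, 91 lay between 20% and 35%, 39 lay under 20%, 3 lay between 65% and 80%, and none reached 80%. The order of WT means was Mest, Peg3, Kcnq1ot1, Peg10, Snrpn, Nap1l5 and Inpp5f. Ranges of the WT libraries did not overlap between Mest and Peg3, between Peg10 and Snrpn, or between Nap1l5 and Inpp5f. In KO cells the order was Kcnq1ot1, Snrpn, Peg10, Peg3, Mest, Nap1l5 and Inpp5f, and the ranges of all neighbours in it overlapped.

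Mest encodes a protein of the alpha/beta hydrolase fold family, and its control region (chr6:30684500-30690500) covers the promoter of the paternally expressed transcript. The 2 overlapping Mest promoter windows were placed by the same looser rule, on 13 listed cytosines, and no shared cytosine fell inside them. The few calls there, at most 7 per library at a cytosine, were all unmethylated, also in WT. The region's 24 shared cytosines lie on either side of these windows. They read 43.9% and 44.2% in WT1 and WT2 and 12.9% and 3.14% in KO1 and KO2. This promoter itself was thus not among the measured sequence. The WT level of the Mest region was the highest of the 7 and the closest to 50%, and its fall of 36 points was the largest (WT 44.0% ± 0.257, KO 8.01% ± 6.88, SD, n = 2). KO cells kept 18.2% of the WT level, and 29.2% by KO1 alone and 7.13% by KO2 alone. The adjusted p was 7.52e-11 by edgeR and 1.28e-04 by limma. The cytosines formed 2 groups more than 3 kb apart. The first, 16 cytosines at 30685294 to 30685509, read 47.6%, 48.5%, 16.7% and 5.60% in the same order of libraries. The second, 8 cytosines at 30689254 to 30689334, read 42%, 42.1%, 11.5% and 2.00%. Both groups were lower in KO cells, and every one of the 24 cytosines was lower in both KO libraries than in both WT libraries. The deepest cytosine (30689262) read 43.7% in WT1 (95% Wilson interval 32.7% to 55.2%), 42.2% in WT2 (30.9% to 54.4%), 10% in KO1 (4.93% to 19.2%) and 1.28% in KO2 (0.227% to 6.91%).

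Peg3 encodes a zinc finger protein, and its region (chr7:6679500-6685500) was covered by 8 shared cytosines in 67 bp, the fewest of the 7. They read 41.1% and 30.2% in WT1 and WT2 and 15.4% and 4.75% in KO1 and KO2. The WT libraries differed by 10.8 points here, the widest WT gap among the regions. The difference was -25.6 points (WT 35.7% ± 7.67, KO 10.1% ± 7.51, SD, n = 2), with an adjusted p of 9.90e-06 by edgeR and 0.00153 by limma. The KO level was 28.2% of the WT level, 43.1% by KO1 alone and 13.3% by KO2 alone. All 8 cytosines were lower in both KO libraries.

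Nap1l5 is an intronless gene that resembles nucleosome assembly proteins, and its region (chr6:58855000-58858500) had 34 of its 36 listed cytosines covered in every library. They read 21.9% and 26.7% in WT1 and WT2 and 3.52% and 2.44% in KO1 and KO2. Both KO libraries were close to 3%, and KO2 was 69.4% of KO1, the smallest gap of the 7 regions. The difference was -21.3 points (WT 24.3% ± 3.35, KO 2.98% ± 0.763, SD, n = 2), with an adjusted p of 2.68e-11 by edgeR and 2.81e-05 by limma. KO cells kept 12.3% of the WT level, the lowest share of the 7. Of the 34 cytosines, 33 were lower in both KO libraries, and 10 had no methylated call in either KO library. WT levels varied along the region: 8 cytosines lay under 20% and 9 between 35% and 65%. On the 19 CpGs read on both strands the strands read 24.8% and 18.2% in WT1 and 33.3% and 19.9% in WT2. In KO cells both strands were between 2.23% and 3.47%.

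Inpp5f encodes an inositol polyphosphate phosphatase, and the imprinted transcript of the locus starts within the gene. Its region (chr7:135830500-135833500) read 16.2% and 11.8% over 26 cytosines in WT1 and WT2 and 3.20% and 1.1% in KO1 and KO2. It was the lowest of the 7 in both genotypes (WT 14% ± 3.07, KO 2.15% ± 1.48, SD, n = 2). The difference was -11.9 points, with an adjusted p of 1.04e-07 by edgeR and 2.48e-04 by limma. Without WT1 it was -9.69 points and under the 10-point minimum. The KO level was 15.4% of the WT level, 22.9% by KO1 alone and 7.89% by KO2 alone. Of the 26 cytosines, 23 lay under 20% in WT cells. The 2 at 135831718 and 135831721 were never read as methylated, where 130 calls in all allow a level of up to 2.31%. On the other strand of the same CpGs, 135831719 read 28.2% in WT1 and 22.2% in WT2, and 135831722 read 21.1% and 19.4%.

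Peg10 is a gene derived from a retrotransposon that is known to be needed for placental development. Its 24 cytosines (chr6:4696000-4700000) read 32.9% and 33.1% in WT1 and WT2 and 23.2% and 4.17% in KO1 and KO2. The WT libraries were almost equal and the KO libraries were 19 points apart, the widest KO gap among the regions. The difference was -19.3 points (WT 33.0% ± 0.166, KO 13.7% ± 13.5, SD, n = 2), with an adjusted p of 1.08e-04 by edgeR and 0.0136 by limma. The KO level was 41.4% of the WT level, but 70.3% by KO1 alone and 12.6% by KO2 alone. Without KO2 the difference was -9.81 points and under the minimum of 10. KO2 was below KO1 at all 24 cytosines, and 8 of them had no methylated call in KO2 while none was without one in KO1. The cytosine with the highest mean KO level (4697490) read 20.7%, 33.3%, 30.0% and 12.9% in WT1, WT2, KO1 and KO2.

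Snrpn encodes a protein of the splicing machinery, and its control region is the mouse counterpart of the Prader-Willi imprinting centre. Over 38 cytosines (chr7:67146500-67152500) it read 29.5% and 25.1% in WT1 and WT2 and 17.9% and 10.6% in KO1 and KO2. The groups did not overlap. The difference was -13.1 points (WT 27.3% ± 3.16, KO 14.2% ± 5.19, SD, n = 2), with an adjusted p of 0.0127 by edgeR and 0.0462 by limma. The region kept 52.1% of the WT level, 65.6% by KO1 alone and 38.7% by KO2 alone. The region was not called without WT1 (-10.8 points, adjusted p = 0.255, edgeR), without WT2 (-15.3 points, adjusted p = 0.134, edgeR), or without KO2, where the difference was -9.40 points.

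The KO mean was below the WT mean at most Snrpn cytosines, but not at all of them. A first group of 23 cytosines (67149466 to 67149787) read 30.1%, 25.1%, 19.4% and 10.9% in WT1, WT2, KO1 and KO2. A second group of 15 (67149928 to 67150115) read 28.8%, 25.1%, 16.6% and 10.2%. At 5 cytosines of the first group, between 67149638 and 67149757, the KO mean was above the WT mean. None of the 5 was called higher by edgeR. One of them (67149739) read 29.4%, 16.7%, 54.5% and 18.8% in the same order, from 17, 6, 11 and 16 calls. The cytosines 67149741, 67149748 and 67149757 had the same WT counts as 67149739 (5 of 17 calls in WT1, 1 of 6 in WT2), so they are not separate observations. The deepest cytosine (67149466) read 34.9% (95% Wilson interval 22.4% to 49.8%), 31.0% (19.1% to 46.0%), 9.52% (3.77% to 22.1%) and 4.35% (1.20% to 14.5%). The share kept in KO cells was 42.7% over cytosines with at least 10 calls in every library and 42% over those with at least 20.

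Kcnq1ot1 is a long noncoding RNA that silences neighbouring genes of its cluster on the paternal chromosome, and its promoter lies in the control region. Its 36 cytosines (chr7:150479500-150483500) read 38.9% and 31.7% in WT1 and WT2 and 25.4% and 12.3% in KO1 and KO2. Both KO values were the highest of the 7 regions in their library. The difference was -16.4 points (WT 35.3% ± 5.10, KO 18.8% ± 9.27, SD, n = 2), with an adjusted p of 0.00559 by edgeR and 0.0433 by limma. The region kept 53.4% of the WT level, 72.0% by KO1 alone and 34.8% by KO2 alone. The region was not called without WT1 (-12.8 points, adjusted p = 0.221, edgeR), without WT2, where the difference was larger than in the full set (-20.05 points, adjusted p = 0.0757, edgeR), or without KO2 (-9.88 points).

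Levels varied sharply along Kcnq1ot1. The cytosine with the highest mean KO level (150481280) read 90.9%, 63.6%, 59.1% and 25% in WT1, WT2, KO1 and KO2, from 11 to 22 calls. The cytosine on the other strand of the same CpG (150481281) and 3 others were never read as methylated, where 61 to 92 calls in all allow levels of up to 4.92% and 3.26%. The deepest cytosine (150481311) read 58.5%, 43.9%, 21.6% and 3.77%, and its 95% Wilson intervals in WT2 and KO1 were 29.9% to 59.0% and 11.4% to 37.2%. The 17 CpGs read on both strands gave 39.9% and 36.7% on the first and second strand in WT1 and 24.2% and 38.2% in WT2. They gave 31.9% and 20.0% in KO1 and 11.1% and 13.4% in KO2, so the order of the strands was not the same in every library.

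In each region 1 cytosine was named, the one with the highest mean KO level among those with at least 10 calls in every library. Others kept a larger share of their WT level: Kcnq1ot1 cytosine 150481332, chosen after its values were seen, had a mean of 39.8% in WT and 37.8% in KO cells. Besides those of Peg10 and Kcnq1ot1 above, the named cytosines read as follows in WT1, WT2, KO1 and KO2. At Mest, cytosine 30689334 read 47.9%, 43.8%, 21.4% and 2.56%. At Nap1l5, cytosine 58856773 read 28.6%, 46.2%, 10% and 5.56%. At Peg3, cytosine 6682991 read 45.2%, 31.4%, 26.5% and 5.56%. In these 3 the KO libraries lay below both WT libraries. At Snrpn, cytosine 67149939 read 32.4%, 36.7%, 26.7% and 15%, with the same order. At Inpp5f, cytosine 135831747 read 30%, 7.69%, 15.4% and 20%, so that the genotypes overlapped there, from 10 to 20 calls.

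**Figure D2:**
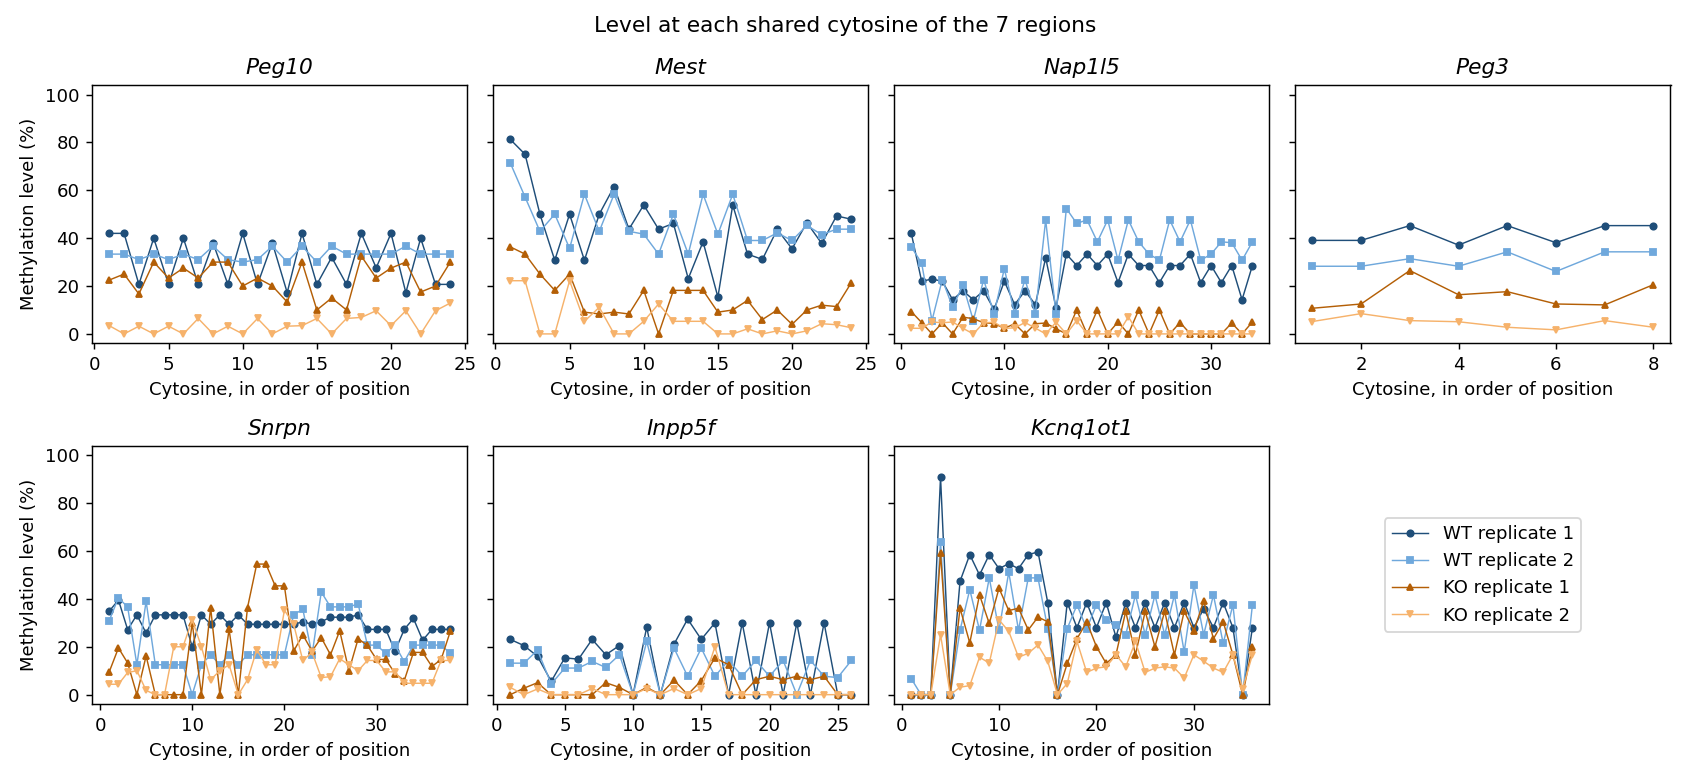
Methylation level (percent of calls, y axis) at each shared cytosine of the 7 regions, in order of position (x axis, not to scale), with 1 line and marker per library. Both KO markers lie below both WT markers at all 24 cytosines of Mest and all 8 of Peg3, and at 33 of 34 in Nap1l5, 18 of 24 in Peg10, 24 of 38 in Snrpn, 14 of 26 in Inpp5f and 18 of 36 in Kcnq1ot1.

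Single cytosines were less often called than whole regions. Of the 190 cytosines 52 were called lower by edgeR and none higher, where 34.7% of all 2468166 cytosines were called lower and 0.0015% higher. The calls were 19 of 34 at Nap1l5, 10 of 24 at Mest, 7 of 8 at Peg3, 7 of 26 at Inpp5f, 4 of 36 at Kcnq1ot1, 3 of 38 at Snrpn and 2 of 24 at Peg10. Of the 190, 84 were lower with an unadjusted p below 0.05 by edgeR. Of all 2468166 cytosines, 942955 had such a p in either direction. Without WT1, WT2 or KO2, the calls fell by a larger part among the 190 than over all cytosines. Without KO1 they rose among the 190 and fell over all cytosines. KO1 and KO2 were each below WT1 and WT2 at 139 of the 190, against 44.6% of all cytosines, and the KO mean was above the WT mean at 6, of which 5 are in Snrpn and 1 in Kcnq1ot1. Cytosines without a methylated call numbered 40 in KO1, 62 in KO2 and 27 in both.

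The KO libraries differed from each other in the same direction at all 7 regions. KO2 was lower than KO1 at each, as it was at 80.8% of all features, and at 136 of the 190 cytosines, while it was higher at 22. The size of this gap varied: KO2 was 17.9% of KO1 at Peg10, 24.4% at Mest, 30.9% at Peg3, 34.5% at Inpp5f, 48.4% at Kcnq1ot1, 59.0% at Snrpn and 69.4% at Nap1l5. To describe these shares, the regions were set beside 1 kb tiles of at least 20 shared cytosines whose WT1 level fell in the same 10-point bin. The median tile had a KO2 level of 62.2% to 67.2% of KO1 in these bins. A share as low as that of Peg10 was found in 3 of 515 tiles, and a share as low as that of Mest in 2 of 471. For Peg3 it was 10 of 471, for Inpp5f 128 of 1226, for Kcnq1ot1 89 of 515, for Snrpn 280 of 671 and for Nap1l5 390 of 671. Peg10 thus was among the higher features of its bin in KO1, where 11 of 515 tiles were at or above it, and among the lower in KO2, where 420 were.

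The same tiles were used to describe the level in KO cells. They match the regions in WT1 level but not in density for Peg3, with 8 shared cytosines, or for Mest, with groups of 16 and 8. The median tile of these bins kept between 24.1% and 28.2% of its WT level. Kcnq1ot1 kept a share that 9 of 515 tiles reached, and Snrpn a share that 30 of 671 reached. Both were high in each KO library: 5 tiles reached Kcnq1ot1 in KO1 and 36 in KO2, and 14 and 29 reached Snrpn. Nap1l5 and Inpp5f were on the low side, since 605 of 671 and 1021 of 1226 tiles kept at least their share. Mest was below most tiles in its share (345 of 471 at or above it), near the middle in KO1 (244 of 471) and low in KO2 (441 of 471). For Peg3 the share was reached by 160 of 471 tiles, and KO1 and KO2 by 157 and 393.

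**Figure D3:**
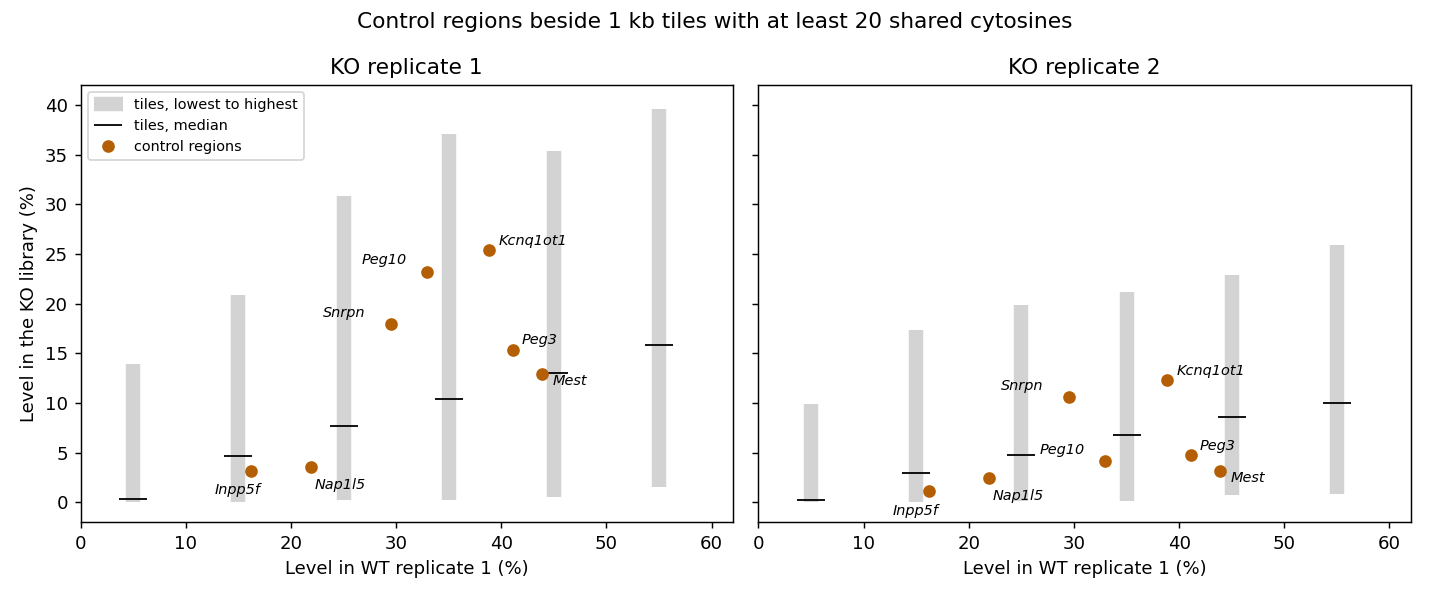
Level in KO1 (left) and KO2 (right) against the level in WT1 (all in percent of calls) for the 7 regions (points), with 1 kb tiles of at least 20 shared cytosines in 10-point bins (grey bars, lowest to highest tile; black lines, median). Snrpn and Kcnq1ot1 lie well above the tile median in both panels, and Peg10 lies above it on the left (23.2% against 10.4%) and below it on the right (4.17% against 6.83%).

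Whether a region moved by more or less than its library was tested with limma on logit levels, after each library was centred on its median over features with a mean level of 10% to 90%. The KO minus WT difference of that median was -3.10 logit units. After centring, Snrpn was higher in KO by 2.25 logit units (SE 0.236, adjusted p = 0.00992, limma) and Kcnq1ot1 by 2.19 (SE 0.255, adjusted p = 0.00992), which means that they fell by less. Peg10 (1.65, SE 0.464, adjusted p = 0.0396) and Peg3 (1.36, SE 0.341, adjusted p = 0.0283) were also called. Inpp5f (1.01, adjusted p = 0.0600), Nap1l5 (0.76, adjusted p = 0.0794) and Mest (0.68, adjusted p = 0.191) did not pass. Of all features 30.1% were called above the shift and 6.63% below it, so 4 of 7 is to be read against that share. With WT1 or WT2 left out, Peg10 did not pass although its estimate hardly moved (1.64 and 1.66, adjusted p = 0.0787 and 0.0781), and neither did Peg3 (1.59 and 1.12, adjusted p = 0.0579 and 0.131).

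The median WT level of all tiles was 80.4%, above that of every region. The test was repeated, as an alternative chosen after seeing the data, with each library centred on the 1659 tiles of at least 20 cytosines and a WT1 level of 20% to 50%. The WT1 level of Inpp5f (16.2%) lies outside that range, and Peg3 and the groups of Mest hold fewer cytosines than these tiles. On these the KO minus WT difference was -1.75 logit units. Snrpn (0.90, SE 0.236, adjusted p = 0.0196) and Kcnq1ot1 (0.84, SE 0.263, adjusted p = 0.0346) were still called above the shift, where 8.32% of features were called above and 57.1% below. Peg10 was at 0.29 and Peg3 at 0.01 (adjusted p = 0.606 and 0.990). Mest (-0.67), Nap1l5 (-0.60) and Inpp5f (-0.34) turned to the other side of the shift and did not pass (adjusted p = 0.160, 0.0912 and 0.389). The intervals of 2 SE on either side were -0.67 to 1.26 for Peg10, -0.70 to 0.71 for Peg3, -1.43 to 0.08 for Mest, -1.13 to -0.07 for Nap1l5 and -1.01 to 0.33 for Inpp5f. Over the main fit and 11 alternatives, Snrpn and Kcnq1ot1 were called above the shift in all 12, with adjusted p of 0.00126 to 0.0243 and 0.00126 to 0.0346. Peg10 and Peg3 were called in 8 of 12, Inpp5f in 4, and Mest and Nap1l5 in 1 each. The settings differed widely in how many features they called above the shift. It was 12914 of 155249 with the tiles of 20% to 50%, and 56338 of 155249 with 2 added to each count.

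**Figure D4:**
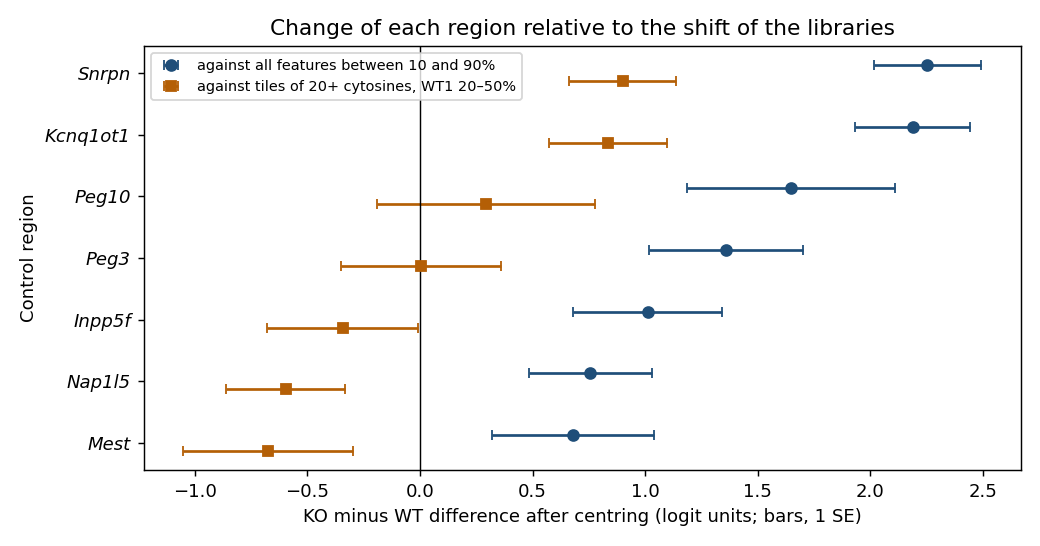
KO minus WT difference of each region in logit units (x axis) after centring each library on all features between 10 and 90% (circles) or on tiles of at least 20 cytosines and a WT1 level of 20% to 50% (squares), with bars of 1 SE. Snrpn and Kcnq1ot1 lie to the right of 0 under both, while Mest, Nap1l5 and Inpp5f lie to the right under the first and to the left under the second.

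Close to the regions the measured DNA was highly methylated in WT cells. Tiles within 25 kb, between 1 and 7 for a region and 17 in all, had WT means of 81.3% to 95.8% and KO means of 21.4% to 38.9%. Snrpn had no such tile. The flanks of Peg3 kept 40.6% of their WT level against 28.2% in the region, those of Mest 29.3% against 18.2%, those of Nap1l5 23.5% against 12.3% and those of Inpp5f 25.6% against 15.4%. At Kcnq1ot1 the order was the reverse, with 29.8% in its single flanking tile against 53.4% in the region, and at Peg10 it was 32.4% against 41.4%. On the logit scale the change of region minus flank was between 0.39 (Mest) and 1.96 (Kcnq1ot1), with the exact permutation p at 1.0 for Mest and at the smallest possible value of 0.33 for the other 5. A positive value means that the region fell by less than its flank on that scale. At Peg3, Mest, Nap1l5 and Inpp5f the share and the logit change thus pointed in opposite directions. With flanks of 100 kb the sign turned for Mest (-0.50), Nap1l5 (-0.98) and Inpp5f (-1.28). These wider flanks had WT means of 59.8%, 20.0% and 8.96% in the same order.

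The tiles whose levels in the 4 libraries were closest to the median of the 7 regions, by Euclidean distance in percentage points, were chr11:77787001-77788000 (3.18), chr3:126067001-126068000 (3.21) and chr3:108743001-108744000 (3.28). The first held 29 cytosines at 32.8%, 30.5%, 14.5% and 7.20% in WT1, WT2, KO1 and KO2, beside region medians of 32.9%, 30.2%, 15.4% and 4.17%. Such a pattern of levels is thus also found outside the 7 regions.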

How the data were processed

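Reduced representation bisulfite sequencing covered genomic DNA of mouse ES cells in 4 libraries, 2 WT and 2 Naa10-KO. For each cytosine the authors deposited its position, its methylation in percent and the counts of methylated and unmethylated calls; the counts were used throughout. The submitters' processing notes name Bismark 0.10.1, Trim Galore and mm9. How reads were trimmed and whether PCR duplicates were removed is not stated, and duplicates would overstate the precision of counts. No mm9 annotation was used.

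Cytosines with 5 or more calls in every library were kept, and counts were summed per region and per 1 kb tile. The edgeR 4.0.16 model (R 4.3.3) held the library, the methylated state and its interaction with genotype, with 1 common dispersion. A call needed a Benjamini-Hochberg adjusted p below 0.05 over all features and 10 points. limma 3.58.1 was run on logit levels with 0.5 added to each count. Exact permutation tests and Wilson intervals used scipy 1.17.1. Data for KO against WT were simulated for 155249 tiles and regions, with 100 changed by 15 points and 100 by 30 points. Of these edgeR called 0 of 100 and 55 of 100, and limma called 0 of 100 at either size. Neither test called an unchanged one. For 150000 simulated cytosines edgeR called 0 and 2 of 100, and limma 0 of 100 at either size. So few features were changed there, whereas edgeR called 79.9% of all features lower in the measured data. The simulated shares therefore cannot tell how reliable the calls for the regions are.

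The regions were given by name. Cytosines were named for the highest mean KO level in each region at 10 or more calls, and the deepest and other cytosines were added after values were seen. Tiles were named for the 3 smallest distances to the regions' median. The members and lists were chosen with earlier results of these data known. The targeted gene was not checked here. Alternatives covered coverage, test, minimum difference, tile size, bounds, centring, flanks, the replicate block and leaving out each library.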

Additional observations from a re-analysis of the deposited data

Results flagged for a closer look

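In Snrpn, 10 cytosines lay outside the main measurement because they had under 5 calls in at least 1 library. They were higher in both KO libraries, at 30.0% of 70 calls and 24.5% of 98 calls (mean 27.2%), than in both WT libraries, at 2.50% and 22.5% of 40 calls each (mean 12.5%). These calls are spread over the 10 cytosines, and neighbouring cytosines are read on the same fragments, so the totals overstate the number of separate reads. The 38 measured cytosines of the region had the opposite order. At the CpGs of the Snrpn promoter window where both strands were listed, the thinly covered strand rests on 4 calls in each WT library and 7 to 10 in the KO libraries. The thinly covered cytosines of Peg3 were lower in KO1 (5.98%) and KO2 (8.16%) than in WT1 (38.8%) and WT2 (46.3%). Those of Mest, Inpp5f, Peg10 and Kcnq1ot1 had KO means below their WT means, but libraries of a genotype disagreed or calls were few. At Peg10, WT1 read 0% of 11 calls and WT2 96% of 25. At Mest, KO1 (22.9%) was above WT1 (11.8%). At Inpp5f, WT1 read 4.05% and KO2 3.57%. Kcnq1ot1 had 4 to 17 calls per library. The difference at Snrpn was not tested.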

How the results depend on the processing

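All 7 regions kept a lower KO level under every alternative run. At a minimum difference of 25 points 2 regions (Mest and Peg3) were called, while Peg10 (-19.3), Nap1l5 (-21.3), Snrpn (-13.1), Inpp5f (-11.9) and Kcnq1ot1 (-16.4) lay under it. With cytosines weighing the same the Nap1l5 difference was -24.7 points, and over cytosines with at least 20 calls its KO level was 19.9% of WT. Leaving out each library in turn, with the spread then taken from the other genotype's pair, left 4 to 7 regions called, with differences of -28.9 to -9.81 (Peg10), -16.7 to -9.40 (Snrpn), -14.0 to -9.69 (Inpp5f) and -23.0 to -9.88 (Kcnq1ot1) points, and 18 to 65 cytosines. The cytosine count was 52 of 190 in the main fit. It was 34 at a minimum of 20 calls, where fewer cytosines were tested and 359112 of 1057915 in the genome were called lower. By Fisher's exact test on pooled calls it was 99, and 949345 of 2468166 in the genome were called lower. Relative to the library-wide shift, leaving out a library gave 0.97 to 2.33 (Peg10), 0.21 to 1.15 (Mest), 0.63 to 0.89 (Nap1l5), 1.00 to 1.72 (Peg3) and 0.77 to 1.25 (Inpp5f) logit units. Centring on tiles of at least 20 cytosines gave 1.06 for Peg10 and 0.78 for Peg3, neither called. Centring on tiles of at least 20 cytosines and a WT1 level of 20% to 50%, which Inpp5f (16.2%) and Peg3 (8 cytosines) do not meet, gave 0.29 and 0.0053, and reversed Mest (-0.67), Nap1l5 (-0.60) and Inpp5f (-0.34). Inpp5f was called with 2 added to each count (0.97), at 10 calls (1.01) and with 4 kb tiles (1.02). In these settings 56338 of 155249, 44478 of 121560 and 35980 of 119496 features were called above the shift. Features called above and below the shift numbered 46681 and 10299, and 12914 and 88588 with these tiles. Flanks of 100 kb reversed Mest (-0.50), Nap1l5 (-0.98) and Inpp5f (-1.28). Libraries of the 2 genotypes share only replicate numbers, and same-numbered deviations correlated at -0.0024 over features. With the replicate block 7 regions and 51 cytosines were called lower, as were 123933 of all 155249 features and 791611 of all 2468166 cytosines. The cause of these moves was not tested.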
